A study of Mus musculus with 6 samples.

Results

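The genes described here carry long-chain fatty acids from the capillary into the mitochondria of the heart, and they were measured by mRNA-Seq in the LVs of mice with a heterozygous *Lztr1* mutation. The 10 genes were chosen by name, and each occurred once among the 56923 genes listed. All 10 passed the filter on low counts, which left 17212 genes for testing. RNA came from the hearts of 3 *Lztr1* R409C/+ mice, labelled Mutant, and 3 wild-type (WT) mice, all aged 12 weeks, and each mouse gave 1 library. The study's methods describe a knock-in allele with a base substitution made by CRISPR/Cas9 and kept on a C57BL/6J background by backcrossing. The allele was carried in every cell and not in cardiomyocytes alone. Hearts were perfused with phosphate-buffered saline, and LVs were taken. No treatment is given for these mice. A base substitution cannot be checked in gene counts, so the groups rest on the labels and the heterozygous R409C allele on the paper. The p-values below set the difference between the groups against the spread between these mice.

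The adult heart takes most of its energy from fatty acids. Lipoprotein lipase, from *Lpl*, is made by cardiomyocytes and carried to the capillary wall, where it frees fatty acids from triglyceride-rich lipoproteins. CD36 and the transport protein FATP1, from *Slc27a1*, support uptake across membranes, the fatty acid binding proteins FABP3 and FABP4 hold the acids in solution, and ACSL1 couples them to coenzyme A. For entry into mitochondria, CPT1 at the outer membrane moves the acyl group to carnitine, the carrier from *Slc25a20* takes acylcarnitine across the inner membrane, and CPT2 returns the acyl group to coenzyme A. *Cpt1b* encodes the muscle form of CPT1 and *Cpt1a* the liver form. Many of these genes are known targets of the PPAR nuclear receptors, which bind repeats of the hexamer AGGTCA.

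No gene of the uptake and shuttle path passed an adjusted p of 0.05 between *Lztr1* R409C/+ and WT mice. 8 of the 10 had a lower fitted level in *Lztr1* R409C/+ mice, from *Slc25a20* at a log2 fold change of -0.13 to *Acsl1* at -0.43. The exceptions were the binding proteins, *Fabp3* at 0.41 and *Fabp4* at 0.52. The median over the 10 was -0.27, where the median of all genes tested was 0.012 and 48.6% of them had a negative value. Adjusted p-values of the 10 genes (edgeR, quasi-likelihood test, Benjamini-Hochberg) ran from 0.398 to 0.859. Over all genes, this test called 7 of 17212 or 0.0407%, of which 6 were higher (0.0349%) and 1 lower (0.00581%). DESeq2 called 150 of 17210 genes (0.872%) and edgeR's exact test 140 of 17212 (0.813%), and both called 0 of the 10. An unadjusted p under 0.05 was reached by *Fabp4* on the higher side and *Slc27a1* on the lower side. Over all genes tested, 5.77% reached it on the higher side and 2.86% on the lower side, 8.63% in all.

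Promoter sequence was at hand for 7 of the 10 genes, in 10 windows of 250 bases that end just before a RefSeq start site. The windows come from RefSeq's table for GRCm38.p6, and each matched GRCm39 once and without mismatch. 3 are shown, namely the 2 that hold the AGGTCA hexamer and, for contrast, that of the muscle binding protein *Fabp3*. *Lpl*, *Fabp4* and *Cpt1b* had no entry. Capitals mark that hexamer, which reads TGACCT where it lies on the other strand, and all sequences run 5′ to 3′ on the gene's strand. The *Cd36* window is chr5:18040895-18041144 on the minus strand, the *Cpt1a* window chr19:3373051-3373300 on the plus strand and the *Fabp3* window chr4:130202281-130202530 on the plus strand, all in GRCm39. The first and second of these lie inside the longer gene bodies of the GENCODE annotation, and the *Fabp3* window overlaps the start of its gene body.
Cd36: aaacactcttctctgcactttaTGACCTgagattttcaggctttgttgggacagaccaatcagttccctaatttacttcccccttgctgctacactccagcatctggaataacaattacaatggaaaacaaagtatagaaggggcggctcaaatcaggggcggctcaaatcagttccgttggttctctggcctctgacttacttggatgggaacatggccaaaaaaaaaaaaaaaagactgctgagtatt
Cpt1a: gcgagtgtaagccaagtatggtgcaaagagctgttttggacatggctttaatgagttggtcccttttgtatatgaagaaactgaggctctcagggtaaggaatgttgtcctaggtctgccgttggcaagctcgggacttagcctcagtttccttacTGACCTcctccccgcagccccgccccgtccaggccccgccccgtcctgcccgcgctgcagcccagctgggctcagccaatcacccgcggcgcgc
Fabp3: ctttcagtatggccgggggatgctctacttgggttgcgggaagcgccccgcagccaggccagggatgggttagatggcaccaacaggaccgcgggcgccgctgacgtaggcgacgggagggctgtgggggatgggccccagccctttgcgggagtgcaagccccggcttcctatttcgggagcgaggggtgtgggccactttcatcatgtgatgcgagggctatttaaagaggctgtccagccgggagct
The hexamer began 228 bases before the start in *Cd36* and 94 bases before it in *Cpt1a*, and the *Fabp3* window held none. Both strands of 32851 promoters of the same length were searched. AGGTCA occurred in 14% of them and in 2 of the 10 windows of these genes. The repeat of AGGTCA, any 1 base and AGGTCA again, which contains the hexamer, occurred in 0.0335% of all promoters, and the looser form with AGGNCA in both places in 0.338%. The 10 windows held 0 of either. GGGCGG, the core of a GC box, occurred in 32.7% of promoters and in 7 of the 10 windows, which belong to 6 genes. TATAAA occurred in 12.4% of promoters and in 0 of the 10. A match here is a run of letters and not a measured binding site.

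*Lpl* (ENSMUSG00000015568.17) lies at chr8:69284603-69360100 on the plus strand of GRCm39. Its level was 6690, 7130 and 5460 CPM in the WT mice and 5010, 6190 and 4430 CPM in the *Lztr1* R409C/+ mice, where CPM are counts scaled to a common library total after TMM normalization and mice are given in replicate order. *Lztr1* R409C/+ replicate 2 lay among the WT mice and the other mutant mice lay below all of them. The mean was 6430 ± 867 CPM in WT mice and 5210 ± 900 CPM in *Lztr1* R409C/+ mice (SD, n = 3 each). The log2 fold change of *Lztr1* R409C/+ over WT was -0.30 with a standard error (SE) of 0.23 and a 95% interval of -0.81 to 0.20, a fold of 0.811 (edgeR adjusted p = 0.760). The data thus leave room for a level between 0.570 and 1.15 times that of WT. Per kilobase of its spliced transcript, *Lpl* was the 40th most abundant of the 17212 genes in WT LVs.

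*Cd36* (ENSMUSG00000002944.16, chr5:17986432-18094067, minus strand) encodes the main fatty acid translocase of the cardiomyocyte and of the capillary endothelium. It was at 1820, 2020 and 1560 CPM in WT mice and 1440, 1800 and 1200 CPM in *Lztr1* R409C/+ mice. As with *Lpl*, mutant replicate 2 alone fell within the WT range. On the log2 scale the difference was -0.29 (SE 0.21, 95% interval -0.74 to 0.17) with an edgeR adjusted p of 0.746. It was -0.15 without mutant replicate 3 and -0.46 without replicate 2, and *Lpl* was at -0.20 and -0.45 without the same mice. *Cd36* and *Lpl* were the closest pair among the 10 genes. Their log2 CPM, each centred on its own mean over the 6 mice, differed by 0.0342 on average, where every other gene lay at least 0.0797 from its nearest partner.

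*Slc27a1* (ENSMUSG00000031808.8, chr8:72021095-72041866, plus strand) was at 110, 98.2 and 97.6 CPM in WT mice and 72.5, 85.8 and 85.0 CPM in *Lztr1* R409C/+ mice. All 3 mutant mice lay below all 3 WT mice. The mean was 102 ± 7.0 CPM in WT mice and 81.1 ± 7.44 CPM in *Lztr1* R409C/+ mice, a fold of 0.796 with a 95% interval of 0.633 to 0.999. Its unadjusted p was 0.0496, and the adjusted p from edgeR was 0.576. This gene, *Acsl1* and *Slc25a20* were the 3 of the 10 whose mutant values all lay below the WT values, and *Fabp4* was the one whose mutant values all lay above. Over all genes tested, 7.23% had groups apart in the lower direction and 8.30% in the higher direction.

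**Figure D1:**
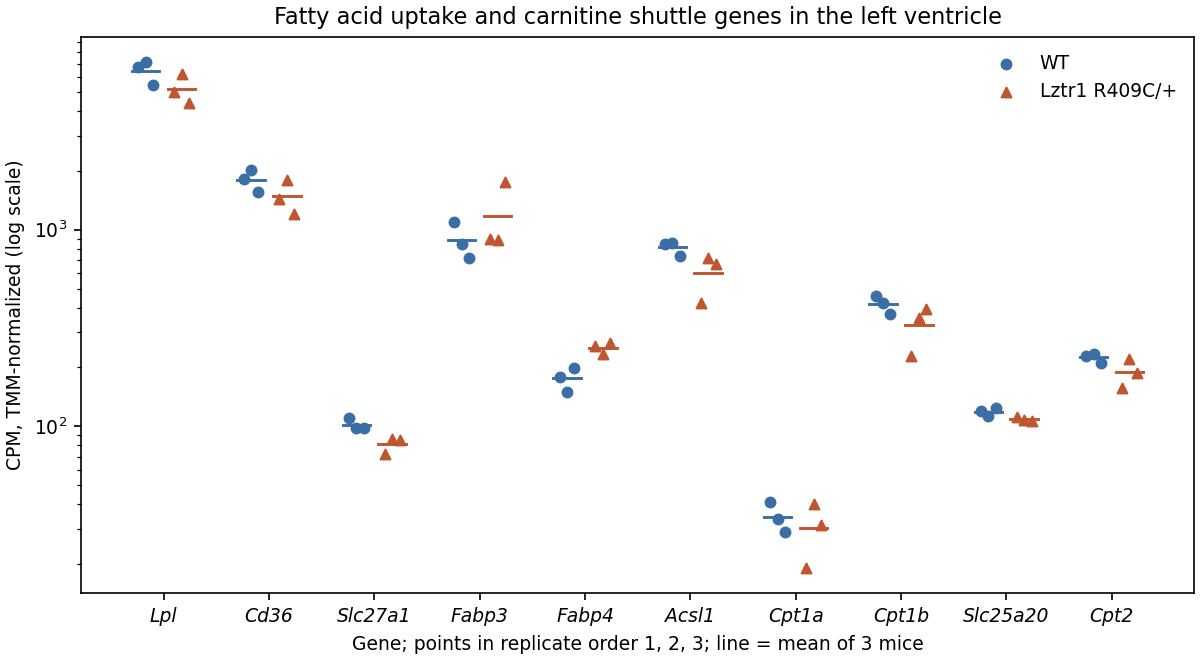
TMM-normalized CPM (log axis) of the 10 genes in each of 3 WT and 3 *Lztr1* R409C/+ mice, with points in replicate order and a line at each group's mean. *Fabp4* lies higher in all 3 mutant mice, *Slc27a1*, *Acsl1* and *Slc25a20* lie lower, and the highest *Fabp3* value, 1740 CPM, belongs to 1 mutant mouse.

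Of the cytosolic binding proteins, *Fabp4* had its mutant values above WT, and *Fabp3* had 1 high mutant mouse. *Fabp4* (ENSMUSG00000062515.4, chr3:10268785-10273737, minus strand), which in the heart is known from capillary endothelium and macrophages and in the body from adipocytes, was at 178, 149 and 199 CPM in WT mice and 256, 233 and 264 CPM in *Lztr1* R409C/+ mice. The groups did not overlap. The mean was 175 ± 25.0 CPM in WT mice and 251 ± 16.2 CPM in *Lztr1* R409C/+ mice, a fold of 1.43 with a 95% interval of 1.12 to 1.83. The log2 fold change of 0.52 (SE 0.16) had the smallest p of the 10 genes, 0.00797, and an adjusted p of 0.398 by edgeR's quasi-likelihood test. Over the alternatives with a test, its adjusted p ranged from 0.160 to 0.976.

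*Fabp3* (ENSMUSG00000028773.9, chr4:130202388-130209259, plus strand), the form of cardiac and skeletal muscle, was at 1090, 844 and 716 CPM in WT mice and 899, 884 and 1740 CPM in *Lztr1* R409C/+ mice. Mutant replicates 1 and 2 lay within the WT range and replicate 3 well above it. The log2 fold change of 0.41 (SE 0.27, 95% interval -0.17 to 1.0, edgeR adjusted p = 0.710) was 0.02 without that mouse. The ratio of *Fabp4* to *Fabp3*, per kilobase of transcript and within each mouse, was 0.0995, 0.107 and 0.168 in WT mice and 0.172, 0.159 and 0.0920 in *Lztr1* R409C/+ mice. The ratios overlapped, and the means of their log2 values differed by 0.17 (two-sided exact permutation p = 0.9, adjusted over 2 ratios 0.9). The smallest p that 3 mice against 3 allow is 0.1.

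Since *Fabp4* and *Cd36* are expressed by more than 1 cell type, markers of the cell types of the LV were read in the same mice. The adipocyte genes were at or near 0. None of 6 was tested, their summed level was 0.148 to 0.249 CPM in WT mice and 0 to 0.0979 CPM in *Lztr1* R409C/+ mice, the highest count of any of them in any mouse was 12, and *Lep* and *Retn* were at 0 in every mouse. *Adipoq* was at 0 in all 3 mutant mice, and of 2 brown fat markers *Ucp1* was at 0 in all 6 mice while *Cidea* was at 7.41 to 9.61 CPM in the WT and 8.03 to 11.0 CPM in the mutant mice. The floor, 3 counts, corresponded to 0.0317 to 0.0541 CPM and covers counting error only. Endothelial genes summed to 525 to 695 CPM in WT mice and 462 to 745 CPM in *Lztr1* R409C/+ mice. By fitted value, 4 of 6 were higher and 2 lower. *Emcn* alone had groups apart, at 30.2, 32.3 and 23.4 CPM in WT mice and 40.3, 37.3 and 35.7 CPM in mutant mice. It also had the only unadjusted p under 0.05 of the 6, 0.0311 by edgeR's quasi-likelihood test, with an adjusted p of 0.535. Macrophage genes summed to 179 to 208 CPM in WT mice and 279 to 390 CPM in *Lztr1* R409C/+ mice, with 6 of 6 higher by fitted value and groups apart in all 6. Each had an unadjusted p under 0.05, and by edgeR's quasi-likelihood test adjusted p-values ran from 0.0985 for *C1qa*, a complement gene of resident macrophages, to 0.457, so that 0 were called at 0.05 and *C1qa* at 0.1. DESeq2 called *C1qa* and *Lyz2*, and edgeR's exact test called *C1qa*. Over all genes tested, 8.3% had groups apart in the higher direction and 5.77% had an unadjusted p under 0.05 on the higher side. Of all genes, DESeq2 called 0.872% and the exact test 0.813%. The hemoglobin genes and *Alas2* summed to 579 to 1480 CPM in WT mice and 1040 to 2630 CPM in *Lztr1* R409C/+ mice, with 5 of 5 higher by fitted value but groups that overlapped in all 5. Adjusted p-values of the same edgeR quasi-likelihood test ran from 0.372 to 0.717, and 3 had an unadjusted p under 0.05. DESeq2 called *Hba-a1* and the exact test called 0. Fibroblast genes summed to 577 to 766 CPM in WT mice and 587 to 726 CPM in *Lztr1* R409C/+ mice, with 3 of 5 higher by fitted value and 2 lower. *Tcf21* alone of these had groups apart, at 4.04, 3.5 and 2.59 CPM in WT mice and 4.94, 4.62 and 5.13 CPM in mutant mice. Its unadjusted p of 0.0429 by edgeR's quasi-likelihood test was the only one of the 5 under 0.05, with an adjusted p of 0.565. The part of macrophages or of endothelium in the *Fabp4* level was not tested. In bulk LVs, fewer cells of a type and less RNA per cell cannot be told apart.

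*Acsl1* (ENSMUSG00000018796.14, chr8:46924063-46990145, plus strand), the main long-chain acyl-CoA synthetase of the heart, gave the lowest log2 fold change of the 10. It was at 850, 854 and 735 CPM in WT mice and 422, 720 and 669 CPM in *Lztr1* R409C/+ mice, so that every mutant value lay below every WT value. Mutant replicate 1 stood far below the other mutant mice. The mean was 813 ± 67.9 CPM in WT mice and 604 ± 160 CPM in *Lztr1* R409C/+ mice, a fold of 0.743 with a 95% interval of 0.542 to 1.02. The log2 fold change of -0.43 (SE 0.21) had an unadjusted p of 0.0616 and an edgeR adjusted p of 0.599, and it was -0.23 without mutant replicate 1.

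Of the carnitine shuttle, *Cpt1b* (ENSMUSG00000078937.9, chr15:89300606-89310239, minus strand) was at 460, 424 and 372 CPM in WT mice and 229, 357 and 395 CPM in *Lztr1* R409C/+ mice. The mutant mice again spread more widely than the WT mice, with replicate 1 lowest and replicate 3 inside the WT range. Its log2 fold change was -0.36 (SE 0.21, 95% interval -0.81 to 0.09, edgeR adjusted p = 0.666) and -0.16 without replicate 1. An overlapping gene model on the same strand, *Gm44502*, shares 9632 bases with *Cpt1b*, and counts could have been split between them. *Gm44502* held 1550, 47 and 204 counts in WT mice and 267, 310 and 222 in *Lztr1* R409C/+ mice, against 12685 to 35246 counts for *Cpt1b* over the 6 mice.

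*Cpt1a* (ENSMUSG00000024900.6, chr19:3371853-3437996, plus strand) was at 41.3, 33.7 and 29.1 CPM in WT mice and 19.1, 40.0 and 31.6 CPM in *Lztr1* R409C/+ mice. The groups overlapped, and mutant replicate 1 was the lowest of the 6 mice. Its log2 fold change of -0.20 (SE 0.24, 95% interval -0.72 to 0.33, edgeR adjusted p = 0.859) turned to 0.04 without that mouse. *Cpt1b* exceeded *Cpt1a* in every mouse, by 24.0, 27.2 and 27.6 times in WT mice and 25.8, 19.2 and 27.0 times in *Lztr1* R409C/+ mice per kilobase of transcript. The log2 ratio was 4.71 ± 0.11 in WT and, in *Lztr1* R409C/+ mice, 4.57 ± 0.27 (SD, n = 3 each), a difference of -0.14 that lay within the spread between mice (two-sided exact permutation p = 0.5, adjusted over 2 ratios 0.9).

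The carrier gene *Slc25a20* (ENSMUSG00000032602.7, chr9:108539250-108562760, plus strand) varied least. It was at 119, 113 and 124 CPM in WT mice and 112, 107 and 106 CPM in *Lztr1* R409C/+ mice. The groups were apart, but by 1 CPM or so at their closest. The log2 fold change was -0.13 (SE 0.14), and its 95% interval of 0.734 to 1.13 times WT was the narrowest of the 10 on the log2 scale (edgeR adjusted p = 0.836).

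*Cpt2* (ENSMUSG00000028607.17, chr4:107751473-107780812, minus strand) was at 229, 234 and 209 CPM in WT mice and 156, 221 and 187 CPM in *Lztr1* R409C/+ mice. Mutant replicate 2 alone fell within the WT range. Its log2 fold change was -0.25 (SE 0.17, 95% interval -0.62 to 0.11, edgeR adjusted p = 0.716). Without mutant replicate 1 it was -0.14, and without replicate 2 it was -0.39. *Cpt2* and *Fabp3* overlap the genes *Czib* and *Zcchc17* on the opposite strand. Whether counting used strand is not stated, so reads in the overlaps could belong to either gene.

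**Figure D2:**
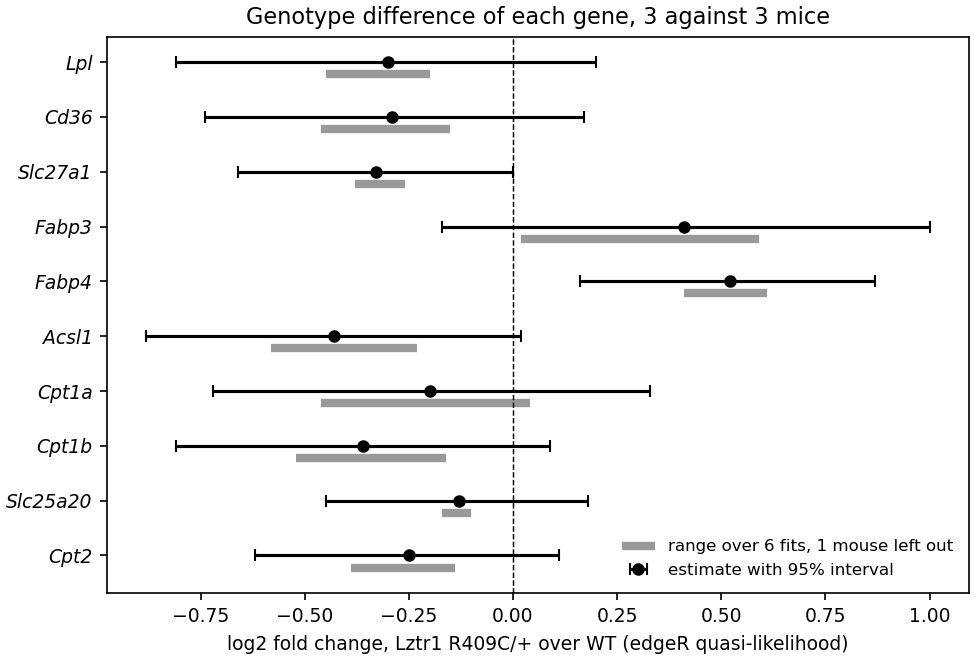
Log2 fold change of *Lztr1* R409C/+ over WT for each of the 10 genes with its 95% interval, and in grey the range obtained when each mouse was left out in turn. The interval lies above 0 for *Fabp4* (0.16 to 0.87), reaches 0 from below for *Slc27a1* and spans 0 for the other 8.

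The order of the genes by level was much the same in both groups. Per kilobase of transcript, WT levels ran from *Lpl* at 1560 ± 211 CPM/kb and *Fabp3* at 1070 ± 228 CPM/kb through *Cd36* at 514 ± 65.3 CPM/kb to *Slc27a1* at 19.0 ± 1.31 CPM/kb and *Cpt1a* at 5.26 ± 0.937 CPM/kb (SD, n = 3). Between them, *Acsl1* at 141 ± 11.7, *Cpt1b* at 137 ± 14.5 and *Fabp4* at 129 ± 18.3 CPM/kb were neighbours that overlapped, followed by *Cpt2* at 94.2 ± 5.44 and *Slc25a20* at 66.6 ± 3.26 CPM/kb. *Cd36* was 3rd, *Cpt2* 7th, *Slc25a20* 8th, *Slc27a1* 9th and *Cpt1a* 10th in all 6 mice. *Acsl1*, *Cpt1b* and *Fabp4* shared the 4th to 6th places in varying order. *Fabp3*, at 1430 ± 593 CPM/kb in *Lztr1* R409C/+ mice, passed *Lpl*, at 1270 ± 219 CPM/kb, in mutant replicate 3, and the 2 genes overlapped in that group. *Fabp4* was 6th in WT replicates 1 and 2 but 4th in WT replicate 3 and in all 3 mutant mice, where it stood at 185 ± 11.9 CPM/kb above *Cpt1b* at 107 ± 28.5 and *Acsl1* at 104 ± 27.6 CPM/kb.

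The mice were then compared over the 10 genes together, as the mean of the centred log2 CPM. This mean was 0.19, 0.08 and -0.04 in WT mice and -0.30, 0.06 and 0.01 in *Lztr1* R409C/+ mice. Mutant replicate 1 stood apart, whereas replicates 2 and 3 lay within the WT range. The place of single mice depended on the scaling. With library size only, the means were 0.07, -0.06 and 0.44 in WT mice, so that WT replicate 3 went from the lowest WT mouse to the highest of all 6, and mutant replicate 1 was at -0.62. In replicate 1, 9 of the 10 genes were below their own mean, and 5 had their lowest value of the 6 mice. These were *Slc27a1*, *Acsl1*, *Cpt1a*, *Cpt1b* and *Cpt2*. In mutant replicate 3, *Lpl* at -0.38, *Cd36* at -0.43 and *Slc25a20* at -0.1 had their lowest values, *Slc27a1* was at -0.09, *Cpt1b* at 0.12 and *Fabp3* at 0.82. *Lpl* and *Cd36* were also below their means in replicate 1, at -0.20 and -0.17. The shuttle genes averaged -0.45 in mutant replicate 1, 0.09 in replicate 2 and -0.03 in replicate 3, against 0.24, 0.13 and 0.02 in the WT mice. The low average in mutant replicate 1 came from *Cpt1a*, *Cpt1b* and *Cpt2*, since *Slc25a20* was at -0.01 there.

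**Figure D3:**
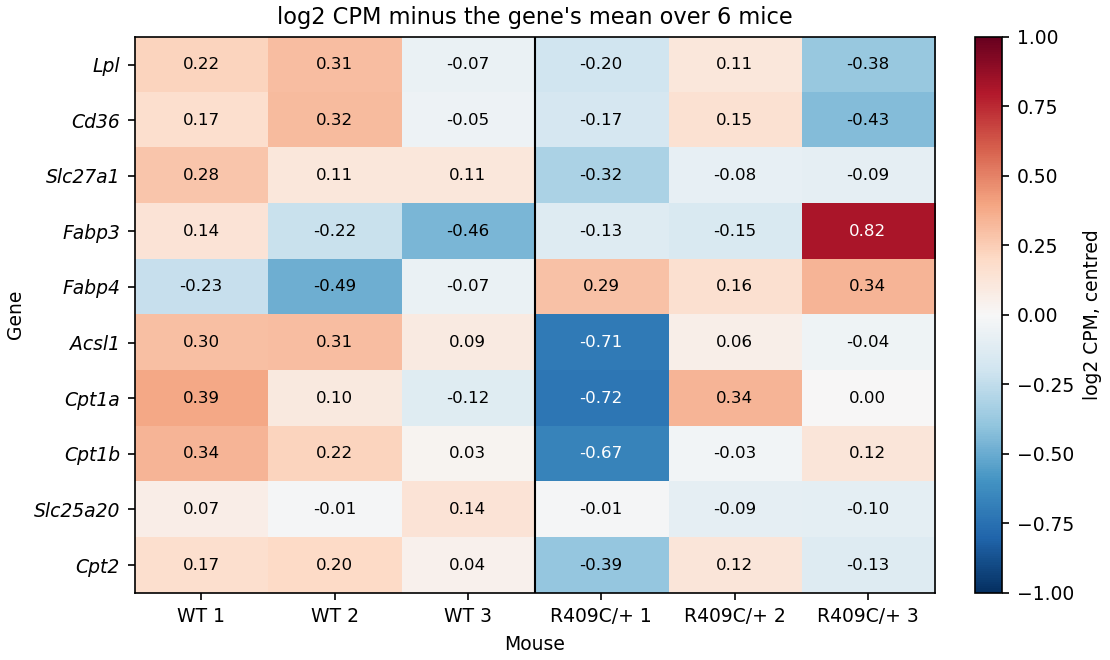
Log2 CPM of each gene minus its mean over the 6 mice, with genes in the order of the path and 1 column per mouse. *Acsl1*, *Cpt1a* and *Cpt1b* are at -0.71, -0.72 and -0.67 in *Lztr1* R409C/+ replicate 1, and *Fabp3* is at 0.82 in replicate 3.

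Libraries held 66130887 to 72641124 counts, and the 10 genes together took 0.689% to 1.32% of them, with 95% Wilson intervals of 0.6868% to 0.6907% and 1.317% to 1.322% at the ends that cover counting error only. Mitochondrially encoded genes took 36.5%, 37.3% and 13.8% of counts in WT mice and 45.4%, 35.0% and 29.7% in *Lztr1* R409C/+ mice, so that WT replicate 3 and mutant replicate 1 stood at the extremes. Among counts from other genes, the 10 genes took 1.68%, 1.72% and 1.53% in WT mice and 1.26%, 1.61% and 1.42% in *Lztr1* R409C/+ mice. Cardiomyocyte genes also had their lowest sum in mutant replicate 1, 27600 CPM against 34500 to 41000 CPM in the other mice, and *Myh6* was at 6330 CPM there against 11900 to 17300 CPM. Without *Myh6* the sum was 21300 CPM in that mouse against 22700 to 24200 CPM. Of the other 6 cardiomyocyte genes, *Actc1* and *Ryr2* were lowest there, *Pln* was highest, at 7060 CPM, and *Tnnt2*, *Tnni3* and *Myl2* lay within the WT range. By fitted value 2 of the 7 cardiomyocyte genes were higher and 5 lower. *Ryr2* alone had groups apart, at 1120, 1150 and 1030 CPM in WT mice and 692, 973 and 949 CPM in *Lztr1* R409C/+ mice (edgeR adjusted p = 0.654). The part of these differences in the levels of the 10 genes was not tested. A fit of the 4 mice without both extremes, added after the data were seen, gave 8 negative values, a median of -0.21 and 0 genes of the 10 called. In it *Fabp4* was at 0.60 and *Acsl1* at -0.29.

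The path was set beside 31 other genes of cardiac fatty acid handling, of which 29 were tested. By fitted value 11 were higher and 18 lower, 0 were called by edgeR's quasi-likelihood test, by DESeq2 or by the exact test, and 2 on the higher and 4 on the lower side had an unadjusted p under 0.05. Over all genes tested, the quasi-likelihood test called 0.0407%, and 5.77% on the higher and 2.86% on the lower side had such a p. Their median log2 fold change was -0.13. Among 5 tested partners of lipoprotein lipolysis (median -0.19), *Gpihbp1*, which anchors lipoprotein lipase to the capillary wall, was at 32.0, 29.9 and 19.0 CPM in WT mice and 45.7, 48.8 and 40.7 CPM in *Lztr1* R409C/+ mice. The groups were apart, and the log2 fold change of 0.74 (SE 0.20, 95% interval 0.31 to 1.17) had an unadjusted p of 0.00274 and an edgeR adjusted p of 0.275. *Sel1l*, whose product is needed for lipoprotein lipase to leave the endoplasmic reticulum, was at 74.2, 75.8 and 89.6 CPM in WT mice and 53.5, 64.4 and 65.1 CPM in *Lztr1* R409C/+ mice (log2 fold change -0.39, SE 0.16, edgeR adjusted p = 0.532). Of the other tested partners, *Lmf1* was at -0.19, *Angptl4* at 1.32 and *Vldlr* at -0.4. *Lpl* itself thus had a fitted value below 0 beside partners on both sides of 0, none of which passed the adjusted test.

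Of 8 tested transporters, binding proteins and synthetases (median 0.01), 4 were higher and 4 lower. *Fabp5*, a further binding protein of endothelium and macrophages, was at 15.9, 15.4 and 8.91 CPM in WT mice and 21.3, 17.1 and 27.3 CPM in *Lztr1* R409C/+ mice, a log2 fold change of 0.71 (SE 0.24, edgeR adjusted p = 0.454). In the same list, *Dbi*, which encodes the acyl-CoA binding protein, was at -0.08 and *Got2* at -0.06. *Acsl3*, a synthetase of lipid droplets, was at 7.17 ± 0.344 CPM in WT mice and 6.06 ± 0.115 CPM in *Lztr1* R409C/+ mice (log2 fold change -0.24, edgeR adjusted p = 0.757).

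Malonyl-CoA, the inhibitor of CPT1, is made by the acetyl-CoA carboxylases. Of 6 genes of carnitine supply and malonyl-CoA control (median -0.21), 1 was higher and 5 lower. *Acaca* was at 10.1, 11.7 and 10.5 CPM in WT mice and 6.52, 7.43 and 9.02 CPM in *Lztr1* R409C/+ mice, with groups apart (log2 fold change -0.49, SE 0.19, edgeR adjusted p = 0.505). The more abundant *Acacb*, whose product sits at the mitochondrion, was at 343, 332 and 320 CPM in WT mice and 203, 283 and 321 CPM in *Lztr1* R409C/+ mice (log2 fold change -0.30, SE 0.18, edgeR adjusted p = 0.691). Here too mutant replicate 1 was lowest, as for *Cpt1b* and *Cpt1a*, and *Acacb* was at -0.14 without that mouse and -0.45 without replicate 3.

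Of 10 genes of triglyceride storage and release (median -0.10), 4 were higher and 6 lower. *Gpam*, which starts glycerolipid synthesis, was at 247, 254 and 250 CPM in WT mice and 118, 238 and 175 CPM in *Lztr1* R409C/+ mice. The WT mice were nearly equal and all mutant mice lay below them (log2 fold change -0.50, SE 0.22, edgeR adjusted p = 0.565). It was -0.28 without mutant replicate 1 and -0.78 without replicate 2. *G0s2*, the inhibitor of adipose triglyceride lipase, was at 9.25 ± 0.885 CPM in WT mice and 11.4 ± 1.12 CPM in *Lztr1* R409C/+ mice (log2 fold change 0.30, edgeR adjusted p = 0.666).

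**Figure D4:**
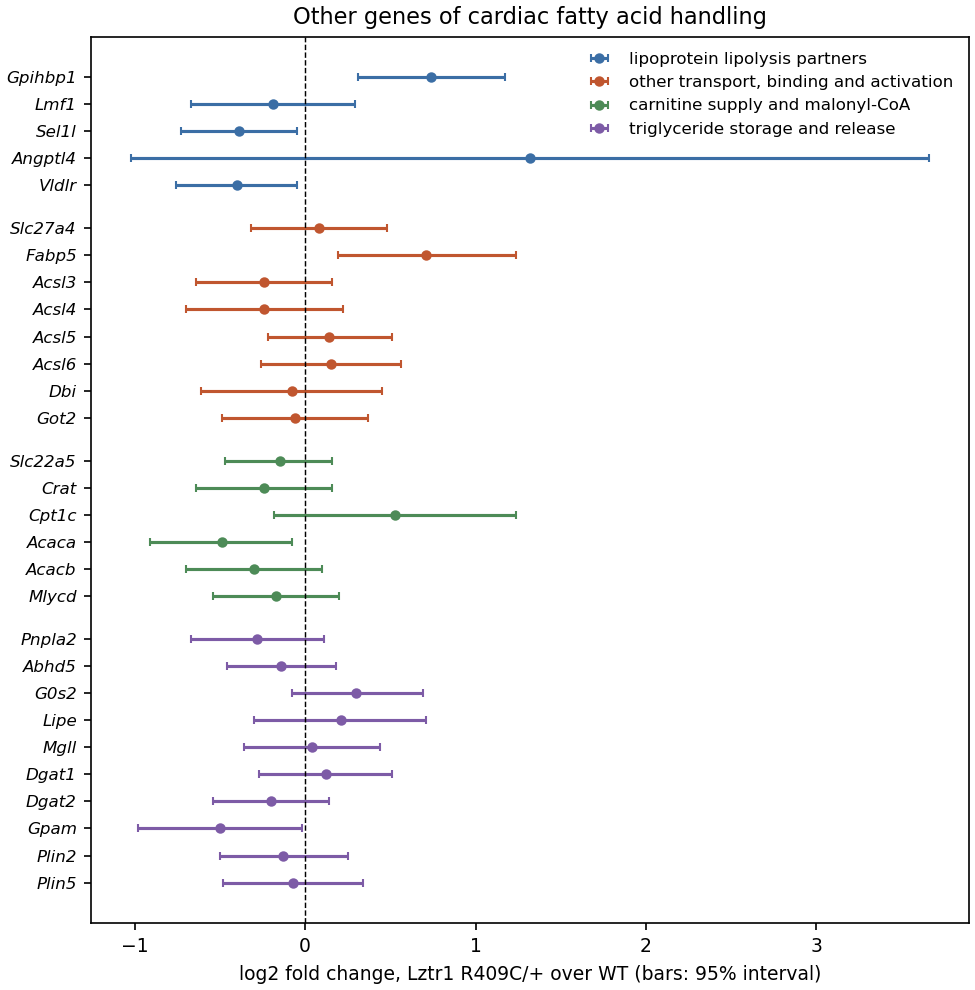
Log2 fold change of *Lztr1* R409C/+ over WT with its 95% interval for the 29 other tested genes of fatty acid handling, grouped by role. The interval lies above 0 for *Gpihbp1* and *Fabp5* and below 0 for *Sel1l*, *Vldlr*, *Acaca* and *Gpam*, and that of *Angptl4*, from -1.02 to 3.66, is the widest.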

How the data were processed

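For mRNA-Seq, the authors trimmed reads with Trim-galore, aligned them to GRCm39 with HISAT2, excluded rRNA and used a pipeline of StringTie and edgeR. The authors deposited whole-number counts per gene, without normalization. Tool versions, the annotation release, the use of strand and the way counts were taken from StringTie are not given in the sources used here. A second deposited table holds the authors' edgeR log2 fold changes, average log2 CPM, p-values and adjusted p-values, of which only the gene names were used.

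Counts of all 6 mice were tested with edgeR 4.0.16 in R 4.3.3: filterByExpr, TMM normalization and the robust quasi-likelihood test of genotype, two-sided, with Benjamini-Hochberg adjustment over 17212 genes at 0.05. Log2 CPM for centring used a prior count of 2. Positions and spliced lengths of canonical transcripts came from GENCODE M39, matched by identifier for 56236 of 56923 genes. Ratios were compared with an exact permutation test. Steps were tested on simulated data. No pair of libraries agreed within sampling noise, and the labels give no batch or date.

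The genes, lists and tests were chosen with earlier results of these data known. Named are the 10 genes, the 2 with the smallest p of each of 4 further lists, and the 3 closest to the mean of the 10. *Lmf1*, *Angptl4*, *Vldlr*, *Dbi*, *Got2* and the marker genes given values were named after these were seen. Alternatives were other scalings, edgeR's exact test, DESeq2 1.42.0, a looser and a stricter filter (none, or 10 counts in each mouse), omission of mitochondrially encoded genes, a replicate block, a gene length correction, a false discovery rate of 0.1 and leaving out each mouse.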

Additional observations from a re-analysis of the deposited data

How the results depend on the processing

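Under every alternative with a test, 0 of the 10 genes and 0 of the 29 other tested genes of fatty acid handling were called. Over 17 alternatives, the median log2 fold change of the 10 stayed between -0.41, without *Lztr1* R409C/+ replicate 2, and -0.16, without replicate 1. 8 values were negative in each alternative but 1, since *Cpt1a* was at 0.04 without mutant replicate 1 (-0.46 to 0.04 over the mice left out). With library size only, which shifted the median of all genes by -0.156, the median of the 10 was -0.40. The number of the 10 with an unadjusted p under 0.05, 2 as reported, was 0 with library size only and 0 to 3 when a mouse was left out. It was 1 with upper quartile scaling, the exact test or at least 10 counts in every mouse. With DESeq2 or with no filter it was 3, since *Acsl1* was then included. The number of genes called higher, 6 as reported, was 15 with library size only, 136 with DESeq2, 127 with the exact test, 19 with no filter, 15 at a false discovery rate of 0.1, 0 without both extremes of mitochondrial share and 1 to 3 when a mouse was left out. Genes called lower, 1 as reported, numbered 6, 14 and 13 with library size only, DESeq2 and the exact test, 0 with at least 10 counts in every mouse and 1 to 2 when a mouse was left out. Among log2 fold changes of the 10 genes, library size only gave 0.33 for *Fabp4*, -0.31 for *Slc25a20* and -0.38 for *Cpt2*, the gene length correction 0.22 for *Fabp3*, -0.13 for *Cpt1a* and -0.21 for *Slc25a20*, and the fit of 4 mice -0.07 for *Cpt1a* and -0.23 for *Cpt1b*. Of the other genes, *Acsl3* was at -0.40 and *G0s2* at 0.17 with library size only, *Acacb* at -0.20 with the length correction, and *Sel1l*, *Acacb* and *Gpam* at -0.21, -0.16 and -0.28 in the 4 mice. The cause was not tested.

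Mice of the same replicate number did not deviate together (correlations 0.00, 0.02 and -0.06). A replicate block gave a median of -0.28, 1 of the 10 under an unadjusted p of 0.05, and 0 genes called higher and 1 lower. The log2 difference of *Cpt1b* over *Cpt1a* was 0.00996 without mutant replicate 2 and ranged from -0.234 to 0.00996, and that of *Fabp4* over *Fabp3* was -0.00196 without mutant replicate 1 and ranged from -0.00196 to 0.451. With 3 mice a group and a biological coefficient of variation of 26.1%, the 95% interval spanned 0 for 8 of the 10 genes, all but *Fabp4* and *Slc27a1*.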

Other observations

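Of all genes tested outside the path, *Med13l*, *Rpn2* and *Rbm24* lay closest to the mean of the 10 genes over the 6 mice, with mean absolute differences of 0.0218, 0.0250 and 0.0256 in centred log2 CPM. *Med13l*, a subunit of the Mediator kinase module, was at 27.4, 25.5 and 23.0 CPM in WT mice and 19.1, 25.0 and 23.1 CPM in *Lztr1* R409C/+ mice. *Rbm24*, a splicing regulator of heart and skeletal muscle, was at 163, 150 and 146 CPM in WT mice and 115, 149 and 138 CPM in *Lztr1* R409C/+ mice. Both were lowest in mutant replicate 1, and with 6 mice and 17212 genes such likeness is a description.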
